A study of Homo sapiens with 18 samples.

Results

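The S100 proteins are small calcium-binding proteins, and 10 of their genes were followed here in lung cancer cells before and after epithelial-mesenchymal transition (EMT). The genes were S100A2, S100A4, S100A6, S100A8, S100A9, S100A10, S100A11, S100A14, S100A16 and S100P, taken as the rows of the expression table that carry these symbols. All 10 were found, among 19849 genes. A549, HCC827 and NCI-H358 are established human lung cancer lines of epithelial origin, each compared as untreated parental cells and as mesenchymal derivatives. Per the labels, the derivatives had grown with 2 ng/ml TGFβ, a cytokine that induces EMT, for 3 weeks, while the methods allow longer or shorter courses depending on the line. TGFβ was withdrawn on the day before lysis, and all 6 groups were kept in RPMI1640 with 10% serum and 4 mM glutamine. There were 3 arrays per group, 18 in all. The replicates were separate samples prepared at the same time. Each p-value below therefore measures the spread between such samples, pooled for each gene over all 6 groups.

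Each S100 protein folds around a pair of EF hands, the loops that hold calcium, and most members pair into dimers that open a binding surface when calcium rises. Inside the cell they bind annexins, myosin, ezrin and other partners at the membrane and cytoskeleton. Some are also released and act on receptors such as RAGE (the product of AGER) and TLR4. Most of the genes sit side by side in a cluster on chromosome 1, whereas S100P lies on chromosome 4. In lung epithelium and its tumours several members mark epithelial identity, and S100A4, also called fibroblast-specific protein, is commonly used as a marker of fibroblasts and of EMT.

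Levels are log2 values after RMA, a procedure that corrects background, brings the arrays to 1 distribution of signal and sums the probes of a probe set. A difference of 1 is 2-fold. A single probe set reads each gene, and levels are compared only within a gene. A gene was said to rise or fall upon EMT when the Benjamini-Hochberg adjusted p of limma's moderated test, taken over all 19849 genes, was under 0.05 and the change exceeded 2-fold. Parental HCC827 replicate 1 stood somewhat apart, with 79 genes more than 2-fold from the mean of its group mates, against 1 to 51 genes on the other 17 arrays. For S100P, S100A14, S100A4 and S100A2, some of the values that it moved are given with and without it. Of 12 epithelial markers 3 fell in A549 and all 12 fell in both other lines, and of 12 mesenchymal markers 7, 10 and 10 rose in A549, HCC827 and NCI-H358. In parental A549 5 of the 12 epithelial markers had a mean above the median of all values in the table, 6.40, and in the other parental lines all 12 did. CDH1, the adhesion protein E-cadherin, fell by 5.81, 2.95 and 3.94 on the log2 scale in the same order. Of 9 alveolar type II markers, 1 rose and 1 fell in A549, 3 fell in HCC827 and 3 fell in NCI-H358, and the transcription factor FOXA2 fell in all 3 lines.

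No S100 member rose in any line, while 3 members fell in A549, 4 fell in HCC827 and 4 fell in NCI-H358. Members higher after EMT at an unadjusted p under 0.05 in limma, with no limit on the fold, numbered 2, 1 and 1, where 19.7%, 23.5% and 24.4% of all genes did, and the methods' t-test with the same limits as limma also gave 0 that rose. S100P and S100A4 fell in all 3 lines, S100A2 and S100A14 fell in HCC827 and NCI-H358, and S100A6 fell in A549. Without parental replicate 1 the count in HCC827 was 3, as S100A4 there was then under 2-fold. Of all genes tested in the respective lines, 3.87%, 6.58% and 5.42% fell and 4.15%, 4.89% and 3.96% rose. In A549, HCC827 and NCI-H358 the median log2 change of the 10 members was -0.21, -0.65 and -0.27, beside -0.02, 0.01 and 0.02 over all genes. Genes that fell in all 3 lines, as S100P and S100A4 did, made up 0.907% of the table. At the study's stricter thresholds, an adjusted p under 1e-05 and more than 5-fold, 2, 2 and 1 members fell, beside 0.736%, 1.63% and 1.36% of all genes. On the adjusted p alone 7, 9 and 6 members differed in either direction, beside 43.4%, 45.8% and 41.4% of all genes. Of these, 2, 1 and 1 were higher (16.6%, 20.8% and 21.5% of all genes) and 5, 8 and 5 were lower (26.8%, 25% and 19.8%). Parental and mesenchymal arrays did not overlap for 7, 9 and 8 of the 10 members in A549, HCC827 and NCI-H358, and the same held for 52.4%, 51.2% and 51.6% of all genes. In cultured cells measured in bulk, fewer cells that carry a transcript and less of it per cell cannot be told apart.

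**Figure D1:**
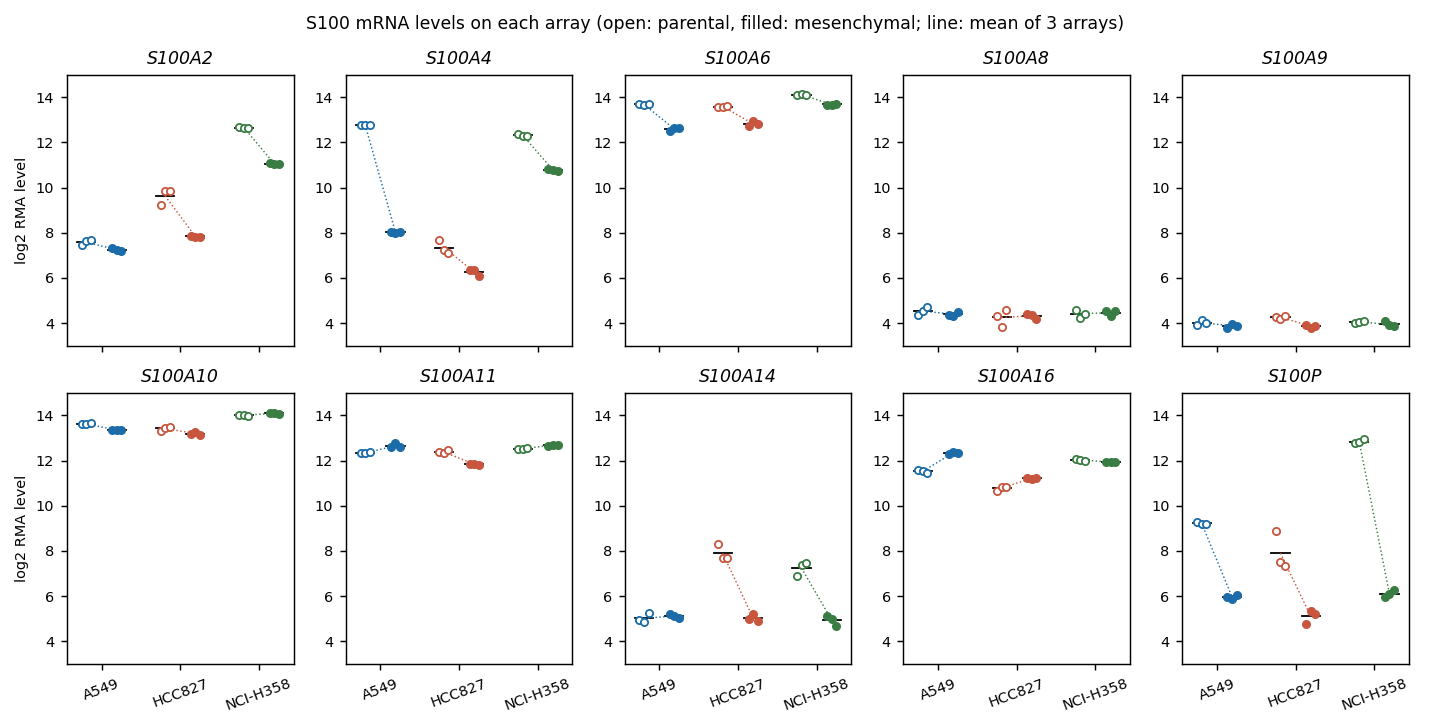
Log2 RMA level of each S100 gene (vertical axis) on every array of the 3 lines (horizontal axis), with open circles for parental cells, filled circles for mesenchymal derivatives and a line for the mean of 3 arrays. S100P falls in all 3 lines from starting levels that lie far apart, S100A4 falls most in A549, S100A14 starts high only in HCC827 and NCI-H358, and S100A8 and S100A9 stay between 3.77 and 4.70 throughout.

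The sequences upstream of the 3 genes with the steepest falls are shown. Each of these genes fell in HCC827 and NCI-H358, but the line that changed most differs between them. Each line below is the 250 bases before the annotated start site in RefSeq for GRCh38.p14, on the gene's own strand. The windows are chr1:153545807-153546056 on the minus strand for S100A4, chr1:153616326-153616575 on the minus strand for S100A14 and chr4:6693628-6693877 on the plus strand for S100P. Capitals mark CACCTG or its reverse complement CAGGTG, the E-box read by the EMT repressors of the SNAI and ZEB families.
S100A4: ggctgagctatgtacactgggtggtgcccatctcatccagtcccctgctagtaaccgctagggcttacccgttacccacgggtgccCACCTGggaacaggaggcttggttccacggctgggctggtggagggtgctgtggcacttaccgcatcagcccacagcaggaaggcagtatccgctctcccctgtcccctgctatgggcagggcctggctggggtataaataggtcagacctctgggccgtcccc
S100A14: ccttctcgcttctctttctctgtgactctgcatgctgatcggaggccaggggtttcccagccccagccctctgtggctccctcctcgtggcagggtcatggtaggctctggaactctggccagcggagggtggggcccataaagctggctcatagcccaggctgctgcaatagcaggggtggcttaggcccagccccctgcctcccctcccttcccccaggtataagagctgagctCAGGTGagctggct
S100P: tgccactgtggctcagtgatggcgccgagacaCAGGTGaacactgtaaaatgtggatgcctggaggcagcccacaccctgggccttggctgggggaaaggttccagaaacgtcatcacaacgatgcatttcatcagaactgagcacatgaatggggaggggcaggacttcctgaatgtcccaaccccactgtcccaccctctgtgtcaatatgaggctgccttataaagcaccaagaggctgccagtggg
The E-box begins 164 bases before the start site in S100A4, 14 bases before it in S100A14 and 218 bases before it in S100P. Over all 10 members, 9 of 14 windows held this E-box, belonging to S100A2, S100A4, S100A8, S100A9, S100A14, S100A16 and S100P, and the 3 windows of S100A8 overlap and share theirs. Of all 35116 RefSeq windows of this length, 17.5% held it. S100A6, which fell in A549, had none in its window. S100A8 and S100A9 carried it and did not fall by both limits. Both were dim in every group, parental cells included, so a 2-fold fall might not be readable for them. Whether the E-box bears on any of these changes was not tested. S100A16 held 2 in 1 of its windows and changed by 0.81, 0.44 and -0.11 in A549, HCC827 and NCI-H358. The letters CAGAC, part of the SMAD site through which TGFβ signals, or their reverse complement stood in 7 of the 14 windows, beside 38.0% of all windows. The AP-1 site TGANTCA was found in 1 window, of S100A2, beside 6.57% of all windows. No overlap between the 3 motifs was removed, and a match describes the letters only.

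S100P, a member that binds ezrin and RAGE and is frequently raised in adenocarcinomas, fell in all 3 lines. In A549 its log2 level was 9.27, 9.21 and 9.18 on the parental arrays and 5.97, 5.89 and 6.05 on the mesenchymal arrays. NCI-H358 fell further, from 12.78, 12.80 and 12.95 to 5.96, 6.08 and 6.26. In HCC827 the parental arrays read 8.87, 7.49 and 7.33 and the mesenchymal arrays 4.78, 5.35 and 5.21. The states did not overlap in any line, although the first HCC827 parental culture stood well above its mates. The change was -3.25 (SE 0.27, 9.51-fold, adjusted p = 2.89e-08) in A549 and -6.75 (107-fold, adjusted p = 1.94e-12) in NCI-H358. HCC827 changed by -2.79 (6.92-fold, adjusted p = 1.41e-07), and by -2.30 without parental replicate 1.

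The loss of S100P was larger in NCI-H358 than in the other lines, and that line began at the highest level and ended beside A549. Its change exceeded that of A549 by -3.50 (adjusted p = 1.04e-06) and that of HCC827 by -3.96 (adjusted p = 3.18e-07). Without parental HCC827 replicate 1 the difference from HCC827 was -4.44. Between HCC827 and A549 the changes differed by 0.46, with a 95% confidence interval from -0.34 to 1.26 (adjusted p = 0.377). Without parental HCC827 replicate 1 that difference was 0.95 and passed the adjusted p (0.000432). Parental levels ran in the order NCI-H358, A549 and HCC827, each neighbour differing from the next (adjusted p = 2.46e-09 and 0.000401). After EMT the means of NCI-H358 and A549, 6.10 and 5.97, did not differ beyond their spread (adjusted p = 0.716), and HCC827 lay lowest at 5.11. These 3 means lay under the table median of 6.40, and how much of such a dim reading is transcript was not tested.

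S100A14, a member bound to the plasma membrane of epithelial cells, fell in the lines where its parental level was higher. HCC827 read 8.31, 7.69 and 7.67 before and 4.97, 5.22 and 4.91 after EMT. NCI-H358 read 6.89, 7.36 and 7.47 before and 5.12, 4.99 and 4.69 after. A549 read 4.94, 4.86 and 5.25 in parental cells and 5.20, 5.12 and 5.04 in mesenchymal cells. The states were fully apart in HCC827 and NCI-H358 and overlapped in A549, where parental cells already sat at the level that the other lines reached after EMT. The change was -2.86 (SE 0.18, 7.26-fold, adjusted p = 4.52e-10) in HCC827 and -2.31 (4.95-fold, adjusted p = 9.54e-09) in NCI-H358. In A549 it was 0.10, with a 95% confidence interval from -0.27 to 0.48 (adjusted p = 0.686). Compared with A549 the change differed by -2.96 for HCC827 (adjusted p = 4.61e-08) and by -2.41 for NCI-H358 (adjusted p = 5.99e-07), whereas HCC827 and NCI-H358 differed by 0.55 (adjusted p = 0.0953), or by 0.34 without parental HCC827 replicate 1 (adjusted p = 0.253). Mesenchymal A549, mesenchymal HCC827 and parental A549, at 5.12, 5.03 and 5.02, did not differ beyond their spread as neighbours in the order. These means also lay under the table median, where the part of transcript in the reading was not tested.

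S100A2, a largely nuclear member of squamous and basal epithelium that binds p53, separated the lines more than the states. NCI-H358 read 12.68, 12.64 and 12.64 before and 11.06, 11.04 and 11.06 after EMT. HCC827 went from 9.22, 9.83 and 9.83 to 7.87, 7.83 and 7.80. A549 went from 7.44, 7.65 and 7.67 to 7.31, 7.22 and 7.20. No line overlapped between its states, but the gap in A549 was narrow. S100A2 fell by 1.79 in HCC827 (SE 0.12, 3.46-fold, adjusted p = 1.34e-09) and by 1.60 in NCI-H358 (3.03-fold, adjusted p = 7.65e-09). The change in A549, -0.34, passed the adjusted p at 0.0292 but not the 2-fold limit, and the adjusted p rose to between 0.0702 and 0.0947 without A549 parental replicate 2 or 3 or mesenchymal replicate 2 or 3. It was smaller than in HCC827 by a difference of -1.45 (adjusted p = 2.35e-06) and than in NCI-H358 by -1.26 (adjusted p = 1.25e-05). HCC827 and NCI-H358 differed by 0.20 (adjusted p = 0.423), and by 0.40 without parental HCC827 replicate 1 (adjusted p = 0.00284). Despite its fall, mesenchymal NCI-H358 at 11.05 stayed above parental HCC827 at 9.63 (adjusted p = 1.4e-08), and it exceeded mesenchymal A549 by 3.81 on the log2 scale. Of 12 squamous and keratinocyte markers, 4 rose in A549, 2 rose and 1 fell in HCC827 and 2 fell in NCI-H358, and their part in the S100A2 levels was not tested.

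S100A16, a broadly expressed member that can pair with S100A14, did not follow its partner. In A549 it read 11.57, 11.55 and 11.47 before and 12.30, 12.37 and 12.35 after EMT, with no overlap. HCC827 read 10.66, 10.84 and 10.84 before and 11.23, 11.18 and 11.25 after, again without overlap. In NCI-H358 the mean went from 12.03 (SD 0.04, n = 3) to 11.93 (SD 0.01, n = 3). A549 thus differed by 0.81 (SE 0.06, 1.75-fold, adjusted p = 8.46e-09) and HCC827 by 0.44 (adjusted p = 1.1e-05). The difference of -0.11 for NCI-H358 missed the adjusted p (0.196), and all 3 were under the 2-fold limit. The change in NCI-H358 differed from that in A549 by -0.91 (adjusted p = 1.85e-07) and from that in HCC827 by -0.54 (adjusted p = 7.62e-05). S100A14 and S100A16 are adjacent on chromosome 1, so in HCC827 neighbouring genes changed by -2.86 and 0.44.

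S100A4, which binds non-muscle myosin and is used as a mesenchymal marker, fell upon EMT in every line. A549 parental arrays read 12.75, 12.75 and 12.79, and the mesenchymal arrays 8.02, 7.99 and 8.05. NCI-H358 read 12.36, 12.29 and 12.29 before and 10.81, 10.78 and 10.73 after. HCC827 started lower, at 7.70, 7.22 and 7.12, and ended at 6.33, 6.36 and 6.10. Replicates in A549 and NCI-H358 lay close together and the states were far apart. The fall in A549 was 4.74 on the log2 scale (SE 0.11, 26.7-fold, adjusted p = 1.9e-15). NCI-H358 changed by -1.54 (2.90-fold, adjusted p = 4.23e-09). The change in HCC827, -1.08 (2.12-fold, adjusted p = 2.96e-07), was at the limit, and was -0.90 without parental replicate 1 and -0.98 after quantile normalization of the table, both under 2-fold.

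The order of the lines in S100A4 was not the same before and after EMT. Parental A549 stood highest of all 6 groups, 42.7-fold above parental HCC827 (adjusted p = 1.5e-16). After EMT A549, at 8.02, lay 6.74-fold below mesenchymal NCI-H358 at 10.77 (adjusted p = 6.78e-13). The change in A549 was larger than in HCC827 by a difference of 3.66 (adjusted p = 1.03e-11) and than in NCI-H358 by 3.20 (adjusted p = 4.81e-11), each written as the other line's change minus that of A549. Between NCI-H358 and HCC827 the changes differed by -0.46 (adjusted p = 0.029), and by -0.63 without parental HCC827 replicate 1. With another array left out, the adjusted p of limma rose to as much as 0.0834. The mesenchymal markers TAGLN and SPARC, an actin-binding protein of smooth muscle and a matrix glycoprotein, rose by 3.64 and 2.88 in the same A549 cultures. They belong to the 7 of 12 listed mesenchymal markers that rose there. The other 5 neither rose nor fell by both limits, and the lowest of them changed by -0.46. The S100A4 probe set carries the manufacturer's suffix for probes that can match more than 1 transcript, and its part in these values was not tested.

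**Figure D2:**
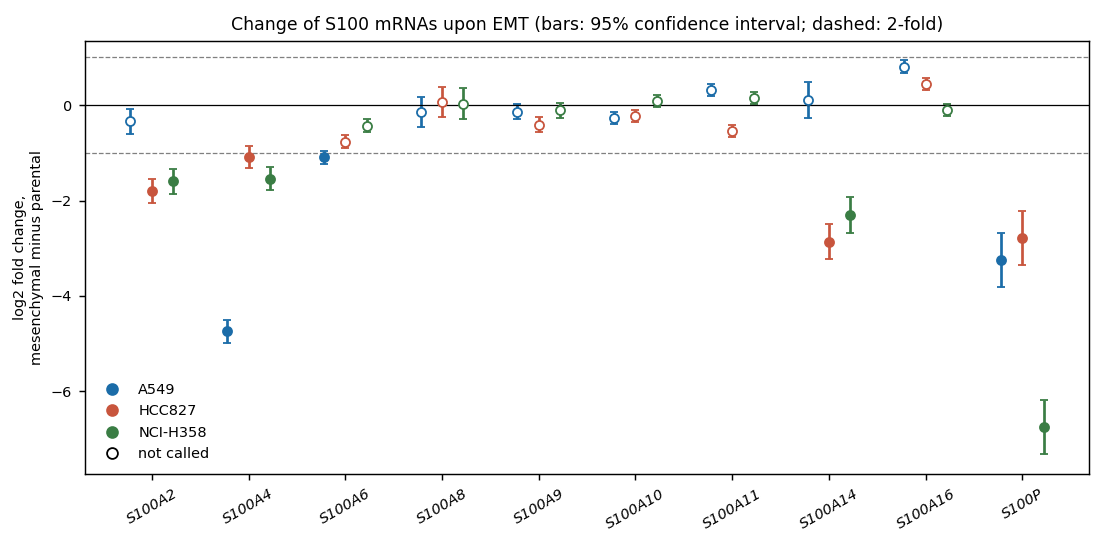
Log2 fold change of each S100 gene upon EMT (vertical axis, mesenchymal minus parental) in the 3 lines, with bars for the 95% confidence interval of the limma fit, dashed lines at 2-fold and filled circles for genes that met both limits. No filled circle lies above 0, and the 3 steepest are S100P in NCI-H358 at -6.75, S100A4 in A549 at -4.74 and S100P in A549 at -3.25.

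S100A6, S100A10 and S100A11, the members known as partners of annexins and of calcyclin-binding protein, moved less. S100A6 (calcyclin) read 13.68, 13.67 and 13.68 in parental A549 and 12.50, 12.65 and 12.62 in its derivative. That fall of 1.09 (SE 0.06, 2.13-fold, adjusted p = 3.64e-10) was the only one among the 3 genes to exceed 2-fold. HCC827 changed by -0.76 (adjusted p = 2.54e-08) and NCI-H358 by -0.44 (adjusted p = 2.54e-05), in each case with no overlap of the states. Across lines the S100A6 change in NCI-H358 differed from that in A549 by 0.65 (adjusted p = 1.65e-05).

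S100A10 differs from its relatives in that its EF hands no longer bind calcium, and it forms a complex with annexin A2. In A549 its mean went from 13.63 to 13.35, in HCC827 from 13.42 to 13.19 and in NCI-H358 from 14.01 to 14.09, with SDs from 0.02 to 0.08 (n = 3). Those shifts of -0.28, -0.23 and 0.08 had adjusted p values of 0.00108, 0.0047 and 0.3. Its partner ANXA2, named after its values were seen, changed by -0.19, -0.29 and 0.03. S100A11, which binds annexin A1, moved in unlike directions, from 12.34 to 12.65 in A549, from 12.38 to 11.83 in HCC827 and from 12.53 to 12.68 in NCI-H358. Its arrays did not overlap between states in any line, with changes of 0.31 (adjusted p = 0.000305), -0.55 (adjusted p = 5.63e-07) and 0.15 (adjusted p = 0.0466). With 1 array left out, the adjusted p of limma in NCI-H358 rose to as much as 0.12. The HCC827 change in S100A11 differed from that in A549 by -0.86 (adjusted p = 2.48e-07), and that in NCI-H358 from HCC827 by 0.70 (adjusted p = 3.62e-06).

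S100A8 and S100A9, the subunits of calprotectin in neutrophils and monocytes, were dim in every group. S100A8 read from 3.85 to 4.70 over the 18 arrays and S100A9 from 3.77 to 4.33, all under the table median of 6.40. For S100A8 the states overlapped in each line, with changes of -0.14, 0.07 and 0.03 (adjusted p from 0.492 to 0.899). S100A9 overlapped in A549 and NCI-H358 and was lower by 0.41 in mesenchymal HCC827. That difference passed the adjusted p at 0.000202 without reaching 2-fold. Of 12 myeloid markers, at most 1 had a group mean above the table median in any group, and the mean log2 level of the list lay between 4.29 and 4.61 on every array. By the limits used for the members, CD14 and ITGAM fell in A549 and FCER1G rose in HCC827.

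Read along the chromosome, the changes formed no single block. RefSeq places 16 S100 genes of the table on chromosome 1, 9 of them among the 10 members. From S100A6 to S100A1 the order is S100A6, S100A5, S100A4, S100A3, S100A2, S100A16, S100A14, S100A13 and S100A1, with 0 other protein-coding genes starting between them. S100A3, beside S100A4, read 9.15, 9.16 and 9.06 in parental A549 and 5.98, 6.02 and 6.00 in mesenchymal A549, a fall of 3.12 (adjusted p = 2.07e-12). In HCC827 and NCI-H358, where S100A4 fell by 1.08 and 1.54, S100A3 changed by -0.29 (adjusted p = 0.0739) and 0.71 (adjusted p = 0.000162). S100A5, on the other side of S100A4, changed by 0.07, 0.03 and -0.31 in A549, HCC827 and NCI-H358, and none of these passed the adjusted p. Of the 11 other family genes and S100-named partners in the table, S100A3 in A549 was the only one to rise or fall in any line, although limma placed 2, 4 and 2 of them higher and 1, 1 and 1 lower at an unadjusted p under 0.05. S100A3, S100A5 and S100A13 were named after their values were seen.

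**Figure D3:**
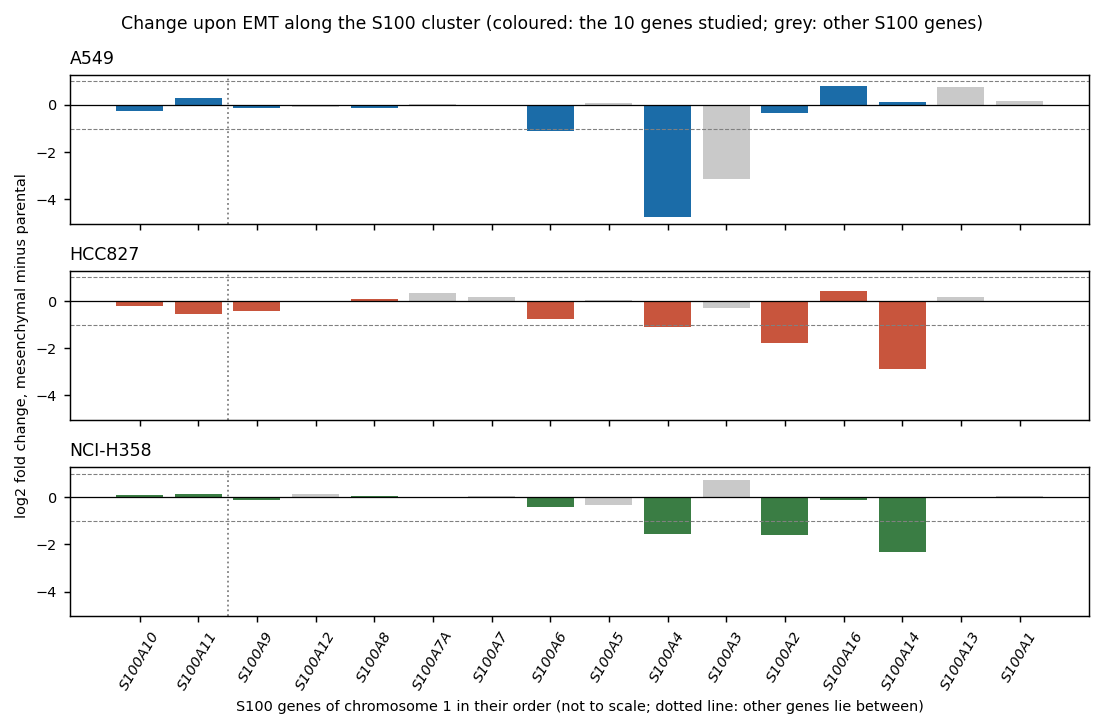
Log2 fold change upon EMT (vertical axes, mesenchymal minus parental) of the 16 S100 genes of chromosome 1 in their order along it (horizontal axis, not to scale), with 1 panel per line, coloured bars for the genes studied and grey bars for the rest. In A549 the long bars are S100A4 and its neighbour S100A3 (-4.74 and -3.12), whereas in HCC827 and NCI-H358 the longest is S100A14 (-2.86 and -2.31).

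Binding partners of the S100 proteins were read on the same arrays. For the counts below, 4.15%, 4.89% and 3.96% of all genes rose in A549, HCC827 and NCI-H358, and 3.87%, 6.58% and 5.42% fell. Of 11 annexins in the table, 2 fell in A549, 1 rose and 3 fell in HCC827, and 2 rose and 3 fell in NCI-H358. The single probe set for ANXA1, the partner of S100A11, had a highest group mean of 6.15, under the table median of 6.40. The changes of ANXA1 had an SE of 0.43. How far its dim reading comes from the probe set rather than from little transcript was not tested. ANXA3 fell in all 3 lines (-2.12, -1.74 and -2.17), and ANXA9 fell in HCC827 and NCI-H358 (-2.65 and -2.24), the lines in which S100A14 fell. ANXA6, a regulator of membrane traffic, rose by 2.35 and 2.22 in those lines and changed by 0.20 in A549. Among 24 other partners, 1 rose and 3 fell in A549, 5 rose and 2 fell in HCC827, and 3 rose and 4 fell in NCI-H358. Ezrin (EZR), the cytoskeletal linker bound by S100P, fell by 1.58 in A549, fell by 1.83 in NCI-H358 and changed by -0.81 in HCC827. AHNAK, the large scaffold bound by S100A10, fell by 2.14 and 2.44 in A549 and NCI-H358. In HCC827 AHNAK changed by -1.03, at the 2-fold limit, and the count of partners that fell there was 1 rather than 2 without parental replicate 2, mesenchymal replicate 1 or mesenchymal replicate 2. TPM1, a tropomyosin of actin filaments, rose by 2.79 in HCC827 and 1.11 in NCI-H358.

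Of the other partners, only PLAT met both limits in opposite directions between lines, while FGFR1 and PLA2G4A met them in HCC827 and NCI-H358 only. PLAT, the plasminogen activator that S100A10 helps to hold at the cell surface, read 5.96, 5.95 and 6.15 in parental A549 and 8.55, 8.85 and 8.63 after EMT. In NCI-H358 PLAT went from 10.00, 9.99 and 10.22 to 8.52, 8.38 and 8.54. PLAT thus rose by 2.66 in A549 and 1.48 in HCC827 and fell by 1.59 in NCI-H358. FGFR1, a growth factor receptor, rose by 3.21 in HCC827 and 4.18 in NCI-H358, and was at 9.96 in parental and 9.52 in mesenchymal A549. PLA2G4A, the phospholipase whose activity S100A10 can inhibit, fell by 1.82 and 1.28 in HCC827 and NCI-H358 and changed by 0.44 in A549.

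**Figure D4:**
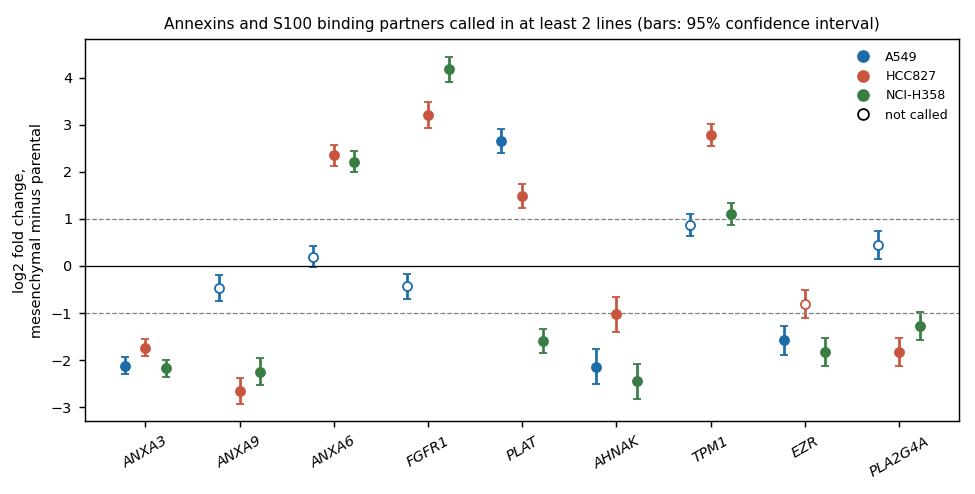
Log2 fold change upon EMT (vertical axis, mesenchymal minus parental) of annexins and intracellular S100 partners that met both limits in at least 2 lines, with bars for the 95% confidence interval and filled circles for changes that met both limits. ANXA3 and AHNAK lie below the lower 2-fold line in all 3 lines, and PLAT lies above the upper line in A549 and HCC827 and below the lower one in NCI-H358.

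The receptors of released S100 proteins were read next, beside the same shares of all genes (4.15%, 4.89% and 3.96% rose and 3.87%, 6.58% and 5.42% fell in A549, HCC827 and NCI-H358). Of 13 receptor genes, 1 rose in A549, 2 rose and 3 fell in NCI-H358, and 0 met both limits in HCC827, where limma placed 3 higher and 4 lower at an unadjusted p under 0.05. In A549 the receptor that rose was SDC1, a syndecan, by 1.33, and the count was 2 without mesenchymal replicate 1. In NCI-H358 MCAM rose by 2.42 and FPR1 by 2.15, while GPR37 fell by 3.50, EMB fell by 1.66 and SDC4 fell by 1.15. AGER, which encodes RAGE, had no group mean above 5.34, with changes of 0.11, 0.08 and 0.15 (adjusted p from 0.31 to 0.6). No receptor gene met the rule for naming, and these were named after their values were seen.

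For the 4 members whose 6 group means spanned more than 2 on the log2 scale, the genes with the closest pattern were sought among all 19849, by the root mean square difference of centred group means over 6 groups. Nearest to S100A14 were TMEM125 (0.20), CBLC (0.23) and LSR (0.24), whose changes were -0.25, -0.09 and -0.27 in A549. In HCC827 these genes changed by -3.01, -2.36 and -2.75, and in NCI-H358 by -1.94, -2.04 and -2.44. S100A2 lay nearest to NOV (0.48), ATP8B3 (0.48) and CRABP2 (0.48). S100P had more distant neighbours, INHBB (0.95), SLC16A14 (1.01) and TTC9 (1.22). The neighbours of S100A4 were ADRB1 (1.04), NPR3 (1.07) and TRERF1 (1.13), with changes in A549 of -3.12, -2.19 and -2.04. In HCC827 these neighbours changed by -0.93, 0.76 and -0.12, and in NCI-H358 by -2.11, -0.75 and -1.07. No member was among the 3 nearest genes of another. Among the members, S100A6 lay nearest to S100A14 (1.05) and to S100A2 (1.61), but ranked only 1852 and 1377 among all genes. S100A4 and S100P lay nearest to each other (1.95), with S100P at rank 186 from S100A4 and S100A4 at rank 187 from S100P. The distance is not scaled to the span of a gene, so a gene that changes little can also lie near. These distances describe 6 group means and carry no test.

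**Figure D5:**
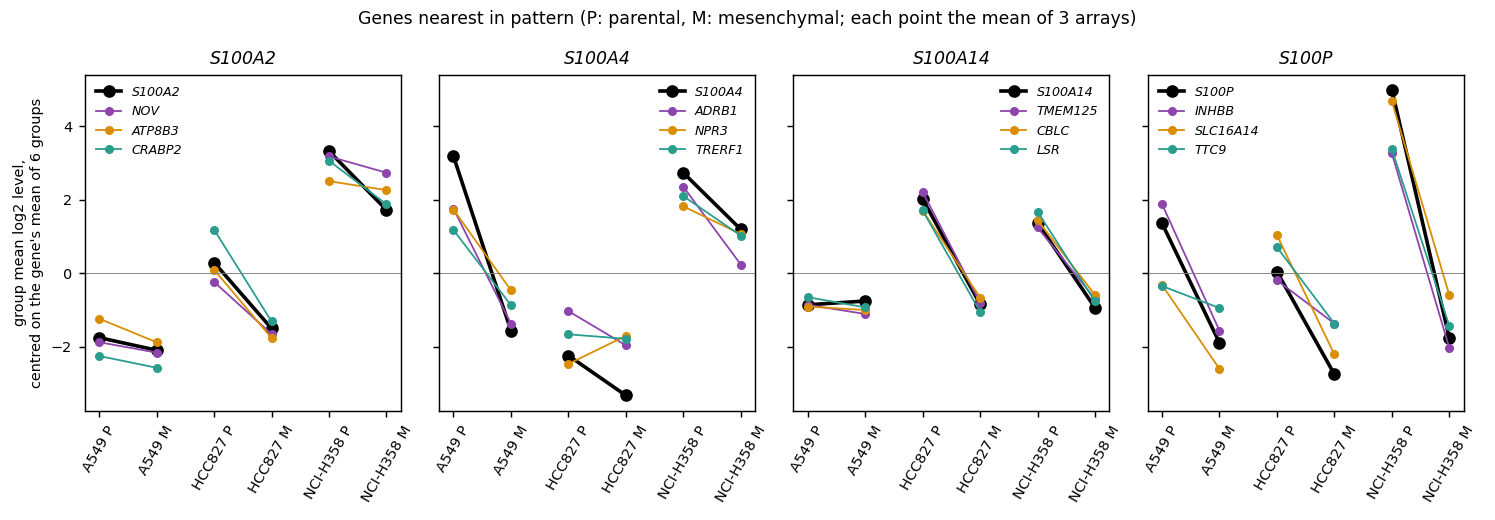
Mean log2 level of 3 arrays, centred on each gene's mean over the 6 groups (vertical axis), in parental (P) and mesenchymal (M) cells of the 3 lines (horizontal axis), for 4 S100 genes in black and the 3 genes nearest to each in colour. The lines of TMEM125, CBLC and LSR run close to S100A14 in all 6 groups, while the neighbours of S100A4 start below its parental A549 point.

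The lines were also compared with each other in the same state. Parental HCC827 and A549 differed in 4 members, S100A2, S100A4, S100A14 and S100P, where 18.8% of all genes differed. Parental NCI-H358 differed from A549 in 3 members (20.4% of all genes) and from HCC827 in 4 (15.2%). Among mesenchymal cells, HCC827 and A549 differed in 2 members (17.2%), NCI-H358 and A549 in 3 (19.8%) and NCI-H358 and HCC827 in 2 (15.2%). The change upon EMT itself differed by more than 2-fold between HCC827 and A549 in 3 members (13.4% of all genes), between NCI-H358 and A549 in 4 (12.7%) and between NCI-H358 and HCC827 in 1, S100P (11%). On the adjusted p alone, for HCC827 against A549, NCI-H358 against A549 and NCI-H358 against HCC827, the change differed in 7, 7 and 7 members, where it did in 42.2%, 42.8% and 37.9% of all genes. By the same measure parental levels differed in 7, 8 and 9 members (57.1%, 57.9% and 52.6% of all genes) and mesenchymal levels in 7, 5 and 7 (56.6%, 58.8% and 52.6%). At the study's thresholds HCC827 and A549 differed in 2 members as parental and 0 as mesenchymal cells, beside 5.15% and 4.51% of all genes. Without HCC827 mesenchymal replicate 2 or 3 or NCI-H358 mesenchymal replicate 1, the 2-fold comparison of mesenchymal NCI-H358 and HCC827 gave 3 members rather than 2.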

How the data were processed

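Total RNA of 18 cultures was hybridized to Affymetrix U133 Plus 2.0 arrays. The table that the authors deposited holds log2 values after RMA normalization, with 1 probe set per gene. The rule that chose the probe set, and the genome build of the annotation, are not given in the sources used here, so no coordinates come from the table. Groups were taken from the sample labels. All 18 arrays entered 1 fit of limma 3.58.1 under R 4.3.3 (functions lmFit and eBayes, 6 groups, no covariate), with contrasts for the change upon EMT in each line, its difference between lines and each pair of groups. Benjamini-Hochberg adjustment ran over all 19849 genes within a contrast. Arrays have no sequencing depth, and 3 arrays per group limit the precision. No arrays held identical values.

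Names are given to all 10 members, genes of the family, receptor, annexin and partner lists that passed both limits in at least 2 lines (at most 6 per list), markers called in the same direction in all 3 lines (at most 4 per list) and the 3 genes nearest in pattern to members spanning more than 2 on the log2 scale. S100A3, S100A5, S100A13, the receptors, ANXA1, ANXA2 and the myeloid genes fall outside this rule. The members and lists were chosen with earlier results of these data known. Of 19849 gene IDs, 19326 matched the RefSeq gene table, including 10 of 10 members, and promoter windows and gene order come from RefSeq (GRCh38.p14). The steps were tested on simulated data. Alternatives were the study's thresholds (adjusted p under 1e-05 and over 5-fold), no fold limit, a separate fit per comparison and an intensity trend. Others were a filter on dim genes, median centring, quantile normalization, Student's t-test and each array left out in turn. The methods name Student's t-test as their default and limma for the arrays.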

Additional observations from a re-analysis of the deposited data

Results flagged for a closer look

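The change upon EMT of the members below differed between lines, by an interaction contrast of limma with an adjusted p under 0.05 and either a difference of more than 2-fold or states that did not overlap and moved in opposite directions in the lines compared. A positive value means that the first line named changed upward relative to the second. Relative to A549, the change of S100A2 differed by -1.45 for HCC827 and by -1.26 for NCI-H358. For S100A4 the difference was 3.66 in HCC827 and 3.20 in NCI-H358, because the fall was deepest in A549. S100A14 differed by -2.96 in HCC827 and -2.41 in NCI-H358, again relative to A549, where it did not move beyond its spread. S100P differed by -3.50 between NCI-H358 and A549 and by -3.96 between NCI-H358 and HCC827.

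Smaller differences are listed because the means moved in opposite directions and the arrays of the states did not overlap. In NCI-H358 the changes of S100A10 (0.08, adjusted p of limma 0.3) and S100A16 (-0.11, adjusted p of limma 0.196) did not pass. For S100A10 and S100A16 the values therefore show changes of different size, and a direction in NCI-H358 is not established. S100A10 in NCI-H358 differed by 0.36 from A549 and by 0.31 from HCC827. S100A11 differed by -0.86 between HCC827 and A549 and by 0.70 between NCI-H358 and HCC827. S100A16 in NCI-H358 differed by -0.91 from A549 and by -0.54 from HCC827. None of these 6 reached 2-fold.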

How the results depend on the processing

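With the study's thresholds, the members that fell numbered 2 in HCC827 and 1 in NCI-H358, and HCC827 and A549 differed in 2 members as parental and 0 as mesenchymal cells (limma). With no fold limit, 2, 1 and 1 members rose in A549, HCC827 and NCI-H358, and 5 and 8 fell in A549 and HCC827. The change then differed in 7 members for each pair of lines, and levels differed in 7, 8 and 9 (parental) and 7, 5 and 7 (mesenchymal) for HCC827 against A549, NCI-H358 against A549 and NCI-H358 against HCC827. Leaving out 1 array moved the count that fell in HCC827 between 3 and 4, with 3 without parental replicate 1, and mesenchymal NCI-H358 against HCC827 between 2 and 3. S100A4 in HCC827 was under 2-fold after quantile normalization (-0.98). The difference in S100A9 between NCI-H358 and A549 was 0.03, and -0.000476 after median centring. With 1 array left out, signs turned only for uncalled values, that S100A9 difference (-0.0398 to 0.0761), S100A8 in HCC827 (-0.136 to 0.237) and NCI-H358 (-0.0544 to 0.122), and the S100A8 difference between these lines (-0.204 to 0.169). The cause was not tested. The count of partners that fell in HCC827 was 1 after median centring, quantile normalization or Student's t-test. S100A8 and S100A9 did not pass the filter on dim genes. No paired analysis was possible because the labels carry no replicate numbers, and replicates were numbered in accession order.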
